A study of Mus musculus with 10 samples.

Results

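The Kelch-like genes code for adaptor proteins of the Cul3 ubiquitin ligase. The 44 members described here are the genes of the deposited count table whose symbol is Klhl or Kbtbd followed by a number, out of 23337 genes in the table. The table uses older symbols for a pair of them, Kbtbd5 for Klhl40 and Kbtbd10 for Klhl41, and these symbols are kept below. Of the 44 members, 37 passed the filter on low counts and were tested. The other 7 had few counts and did not pass the filter: Klhl1 had 0 counts in every sample, Klhl14 had 0 to 1, Klhl29 0 to 4, Klhl35 0 to 4, Kbtbd11 0 to 7, Klhl10 3 to 29 and Klhl3 4 to 33.

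The samples were sorted heart muscle cells of mice at postnatal day 14. Every animal had received an adeno-associated virus of serotype AAV9 on postnatal day 1, which carries Cre recombinase under the cardiac troponin T promoter, so that recombination is limited to heart muscle cells that the virus reached. The knockout group was Actn2 F/F, with both copies of Actn2 floxed (flanked by Cre target sites), and the heterozygote group was Actn2 F/+, with 1 floxed copy. Each group had 5 animals, the heterozygotes carried the virus and a floxed allele too, and no uninjected group enters the comparison. Actn2 codes for alpha-actinin-2, which crosslinks actin filaments at the sarcomere's Z-disc.

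In a typical adaptor of this family a BTB domain binds Cul3 and a domain of Kelch repeats binds the protein to be marked with ubiquitin. Such an adaptor chooses what the ligase acts on. Several members are known from striated muscle. KLHL40 and KLHL41 bind thin-filament proteins of the sarcomere, and mutations in either, or in KBTBD13, cause nemaline myopathy in people. KLHL24 mutations cause a skin blistering disease with cardiomyopathy.

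Libraries held 8086656 to 25237696 counts assigned to genes. The check of the targeted gene came first. Actn2 was at 3366, 3454, 3474, 2930.1 and 2677 CPM (counts of the gene relative to the library total, scaled by TMM factors) in heterozygotes 1 to 5 and at 1286, 1249.9, 1145, 1182 and 1219.8 CPM in knockouts 1 to 5. It fell by 1.39 on the log2 scale (standard error 0.0910, edgeR adjusted p = 3.48e-07), and the groups did not overlap. All 10 heart muscle cell markers were detected, with a summed level of 126198 to 155672 CPM in heterozygotes and 117337 to 143776 CPM in knockouts, and 2 of the 10 were called lower. Markers of other cells were present at low levels. The 10 endothelial markers summed to 534 to 872 CPM in heterozygotes and 368 to 623 CPM in knockouts (1 of 10 called lower, and 9 of 10 at an unadjusted edgeR p below 0.05), and the 9 tested fibroblast markers gave no call (353 to 591 against 349 to 692 CPM over the list). Smooth muscle and pericyte markers summed to 475 to 700 against 542 to 697 CPM (1 of 8 called higher), leukocyte markers to 13.2 to 37.9 against 9.39 to 11.8 CPM (1 of 5 tested called lower, with Ptprc too low to test) and erythroid markers to at most 1.41 CPM. Interferon response genes summed to 765 CPM in heterozygote 3, against 49.5 to 60.2 CPM in the other heterozygotes and 49.7 to 66.2 CPM in the knockouts, and 2 of the 8 tested were called lower (median log2 fold change of the 8, -1.63). In such bulk samples, fewer cells of a type and less RNA per cell cannot be told apart.

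Of the 37 tested members, 6 differed between knockout and heterozygote (edgeR quasi-likelihood test, adjusted p below 0.05 over all 11870 tested genes), which is 16.2% of them, beside 18.9% of all tested genes. Kbtbd5, Kbtbd10, Klhl34, Klhl6 and Klhl2 were higher in the knockouts, and Klhl33 was lower. All tested genes were called higher at a share of 10.2% and lower at 8.64%. The family as a whole therefore changed about as often as other genes did, and its median log2 fold change of 0.04 was near that of all genes, 0.0023. The call came with at least a 2-fold change in 3 members (Kbtbd5, Klhl34 and Klhl33), beside 3.96% of all tested genes. Individual members spanned -1.29 to 2.38 on the log2 scale. Without heterozygote 3, in which the interferon response genes were high, 6 members were called, with Kbtbd10 lost and Klhl23 gained. With library totals as the only scaling, 10 members were called, 9 higher and 1 lower, and over all genes the split of calls moved from 1216 higher and 1025 lower to 1684 higher and 760 lower.

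**Figure D1:**
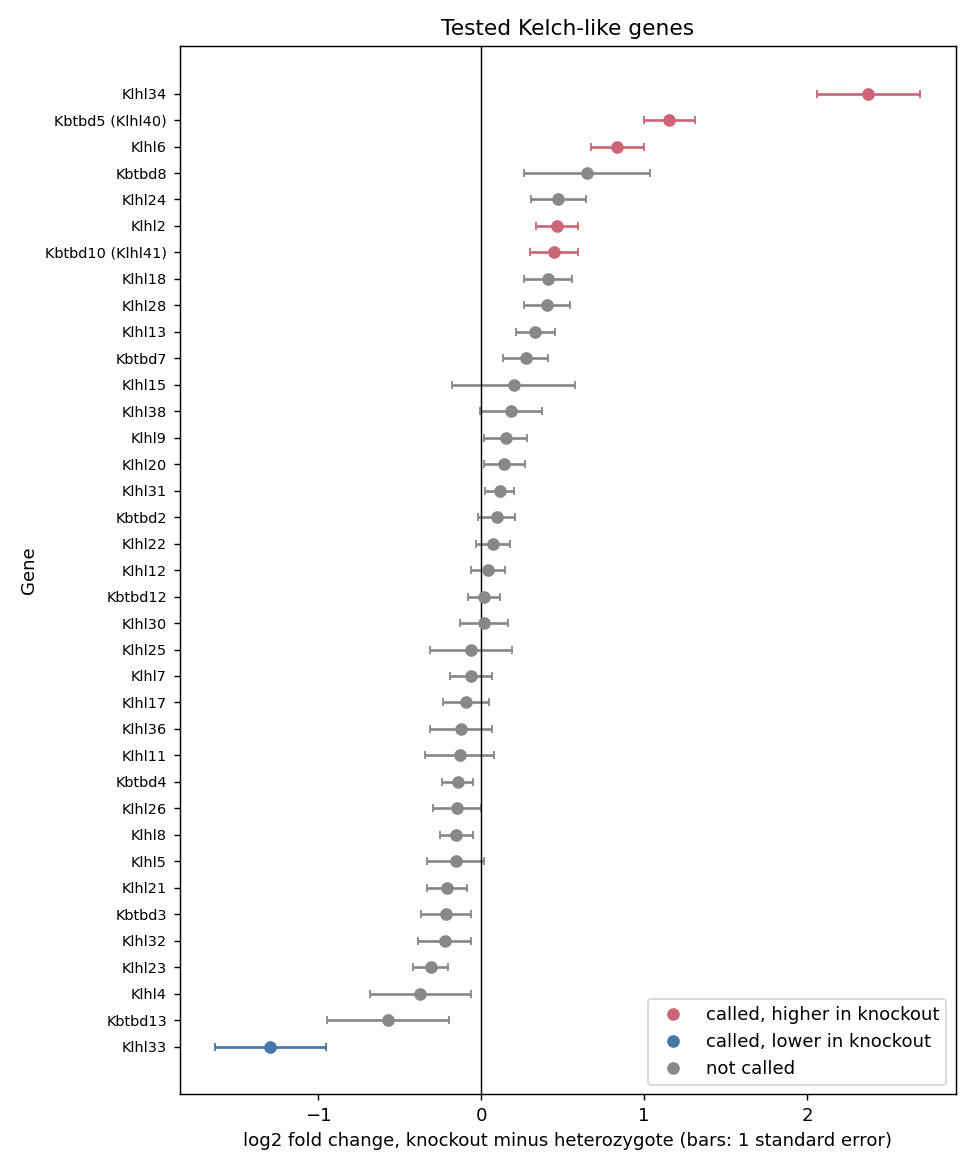
Log2 fold change, knockout minus heterozygote, of the 37 tested Kelch-like genes, with bars of 1 standard error. Klhl34 stands farthest to the right at 2.38 and Klhl33 farthest to the left at -1.29, and 22 of the 31 genes without a call lie within 0.25 of 0.

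The promoters of 3 members that were higher in the knockouts are shown because each holds the letters CAGCTG, a form of the E-box that is bound by basic helix-loop-helix factors. They are the 250 bases before the RefSeq start site (build GRCm38.p6), written 5′ to 3′ on the gene's own strand, with CAGCTG in capitals. Kbtbd5 lies at chr9:121777357-121777606 on the plus strand, Kbtbd10 at chr2:69669870-69670119 on the plus strand and Klhl6 at chr16:19983050-19983299 on the minus strand.
Kbtbd5: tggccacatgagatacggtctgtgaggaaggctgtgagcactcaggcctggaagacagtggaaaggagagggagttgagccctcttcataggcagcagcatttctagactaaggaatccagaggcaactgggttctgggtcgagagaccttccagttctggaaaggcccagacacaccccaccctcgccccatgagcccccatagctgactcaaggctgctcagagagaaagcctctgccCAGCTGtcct
Kbtbd10: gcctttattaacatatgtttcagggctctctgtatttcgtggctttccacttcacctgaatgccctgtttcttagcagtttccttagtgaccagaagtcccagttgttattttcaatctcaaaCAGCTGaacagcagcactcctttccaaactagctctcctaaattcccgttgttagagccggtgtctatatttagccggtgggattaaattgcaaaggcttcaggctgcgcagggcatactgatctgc
Klhl6: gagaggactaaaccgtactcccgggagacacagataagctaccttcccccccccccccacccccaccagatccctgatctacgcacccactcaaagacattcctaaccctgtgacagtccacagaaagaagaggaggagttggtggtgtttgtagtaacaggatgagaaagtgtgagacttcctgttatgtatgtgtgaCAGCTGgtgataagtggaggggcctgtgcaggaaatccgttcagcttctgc
The first base of the motif lies 10 bases before the start site in Kbtbd5, 127 bases before it in Kbtbd10 and 51 bases before it in Klhl6. The motif was chosen after these letters had been seen, and it reads the same on both strands. RefSeq promoters matched 38 of the 44 members. Kbtbd11, Klhl8, Klhl14, Klhl24, Klhl30 and Klhl38 had no match and were not searched. CAGCTG was found in 4 of the 5 members called higher (Klhl34 also had it, Klhl2 did not) and in 4 of 27 members without a call. For Klhl34 the RefSeq start site is the first base of its start codon, so the bases searched may be untranslated transcript, not promoter. For Klhl2 the RefSeq start site (64849924) is not the start of the counted model (64779865). These counts are of genes with the motif in any of their promoters, and over all genes it was in 3979 of 27025. Counted by promoter, CAGCTG was present in 4271 of all 32851 promoters of the same length (13%), and its more general form CANNTG, which includes it, in 66.2%. The MEF2 motif, present in 2.92% of all promoters, was found in Kbtbd10 among the members called higher. It was also found in 1 of the 2 promoters of Klhl33, the member called lower, and in Kbtbd12, which had no call. The CArG box was found in none of the 38 members searched, beside 1.47% of all promoters. CATTCC, searched on either strand, was in 1 of 5 members called higher, in Klhl33 and in 1 of 27 members without a call. It was also in 2 of the 5 searched members that were not tested, beside 12.6% of all promoters. These matches describe letters in the sequence only.

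Among the sarcomere-linked members, Kbtbd5 (Klhl40, chr9 121777607 to 121783819, plus strand) showed the clearest change. KLHL40 is known to stabilise nebulin and leiomodin-3 in skeletal muscle. Its level was 19.7, 31.6, 19.99, 22.9 and 16.1 CPM in heterozygotes 1 to 5 and 52.8, 45.8, 51.2, 40.4 and 54.4 CPM in knockouts 1 to 5. Every knockout was above every heterozygote, with heterozygote 2 the highest of its group. The mean rose from 22.1 ± 5.82 to 48.9 ± 5.75 CPM (SD, n = 5 each). This is a 2.23-fold rise, 1.16 on the log2 scale (standard error 0.156, edgeR adjusted p = 0.000164), and the gene kept its call in all 20 alternative analyses. Per kilobase of counted exon (RPKM), the level went from 8.99 ± 2.37 to 19.9 ± 2.34, which moved the gene from rank 16 to rank 9 in the family. In the GENCODE annotation 540 of its 2455 counted exon bases overlap Gm47108 on the opposite strand, and counting that ignores strand cannot tell such reads apart.

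Kbtbd10 (Klhl41, chr2 69670120 to 69684239, plus strand) codes for a protein that binds nebulin-related proteins during myofibril assembly. Heterozygotes 1 to 5 had 79.3, 69.0, 71.3, 93.5 and 117 CPM, and knockouts 1 to 5 had 123, 131, 126, 116 and 91.4 CPM. The groups overlapped: heterozygote 5 was above knockouts 4 and 5, and knockout 5 was below heterozygote 4 as well. The mean of 86.0 ± 19.8 CPM rose to 117 ± 15.5 CPM, 1.36-fold or 0.45 on the log2 scale (standard error 0.146, edgeR adjusted p = 0.0453). This call lay at the threshold and was lost in 12 of 20 alternatives, in which the direction stayed the same. It was lost with RLE scaling (edgeR adjusted p = 0.0537), and without heterozygote 1, 2 or 3 or knockout 1, 2, 3 or 4, with an edgeR adjusted p of 0.0727 to 0.1004. At 33.9 and 46.2 RPKM it was among the 5 most abundant members in both groups.

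Klhl34 (chrX 157818435 to 157820369, plus strand, a single exon) had the largest fold change in the family. Its counts were low in the heterozygotes, at 1.64, 3.93, 2.18, 1.44 and 2.85 CPM, and higher in the knockouts, at 18.2, 13.7, 14.2, 7.80 and 7.36 CPM. The lowest knockout was well above the highest heterozygote, and knockouts 4 and 5 were the lowest of their group. From 2.41 ± 1.01 to 12.3 ± 4.63 CPM the rise was 5.19-fold, or 2.38 on the log2 scale (standard error 0.318, edgeR adjusted p = 0.000152). Reads behind these values numbered 13 to 39 per heterozygote and 76 to 180 per knockout, above the level that 3 counts stand for (0.126 to 0.384 CPM). The counted model holds coding sequence only, as does that of Klhl33, so reads from untranslated ends are not in either value. The gene lies on the X chromosome. Summed over 4 Y-linked genes, the level ran from 0 to 277 CPM in heterozygotes and from 0.0566 to 260 CPM in knockouts, so both groups held animals with almost no Y-linked reads. With a score of these 4 genes as covariate the log2 change of Klhl34 was 2.30 (edgeR adjusted p = 0.000416).

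Klhl6 (chr16 19946492 to 19983049, minus strand) is known for its part in B-lymphocyte signalling. It was measured at 12.6, 11.9, 11.3, 9.88 and 9.64 CPM in the heterozygotes and 23.1, 20.2, 23.9, 19.2 and 13.1 CPM in the knockouts. The groups did not overlap, although knockout 5 lay just above heterozygote 1. Its mean rose 1.79-fold, from 11.1 ± 1.28 to 19.9 ± 4.29 CPM (log2 fold change 0.84, standard error 0.165, edgeR adjusted p = 0.00283). Leukocyte markers, of which 5 were tested and 1 was called lower, summed to 13.2 to 37.9 CPM in heterozygotes and 9.39 to 11.8 CPM in knockouts. Which cells the Klhl6 reads came from was not tested. The next gene of the family along the chromosome, Klhl24, begins 115 kb away with 0 other genes of the table between them.

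Klhl2 (chr8 64739862 to 64779865, minus strand) codes for an actin-binding adaptor, also called Mayven, that targets WNK kinases. Heterozygotes stood at 15.3, 12.5, 10.1, 12.2 and 12.6 CPM and knockouts at 16.97, 16.7, 18.05, 16.3 and 19.3 CPM, with no overlap. The mean went from 12.5 ± 1.84 to 17.5 ± 1.22 CPM, a 1.38-fold rise (log2 fold change 0.47, standard error 0.129, edgeR adjusted p = 0.0207). The call was lost without knockout 3 (adjusted p = 0.0502) and without knockout 5 (adjusted p = 0.0556). With a score of the endothelial markers as covariate (their sum was 534 to 872 CPM in heterozygotes and 368 to 623 CPM in knockouts) the log2 change was 0.32 (edgeR adjusted p = 0.280). The score is not independent of group (median marker sum 659 CPM in heterozygotes and 484 CPM in knockouts). Over all genes this covariate cut the calls from 2241 to 1032. The counted model lacks the gene's first exon: its first base lies 69793 bases or more after every annotated start codon of the gene.

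Klhl33 (chr14 50891389 to 50893255, minus strand) was the single member called lower. Among the heterozygotes the level was uneven, at 6.09, 11.8, 12.8, 4.11 and 12.99 CPM, and the knockouts had 3.75, 5.50, 3.12, 5.03 and 2.04 CPM. Heterozygote 4 lay within the knockout range, so the groups overlapped. The mean fell from 9.56 ± 4.16 to 3.89 ± 1.41 CPM, a ratio of 0.408 (log2 fold change -1.29, standard error 0.339, edgeR adjusted p = 0.0157). With the endothelial score as covariate the log2 change was -1.26 and the call was lost (edgeR adjusted p = 0.0940). Under the same covariate Kbtbd5 (1.11, edgeR adjusted p = 0.00712), Klhl34 (2.25, adjusted p = 0.00551) and Klhl6 (0.91, adjusted p = 0.0215) stayed called, while Kbtbd10 did not (0.48, adjusted p = 0.158).

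**Figure D2:**
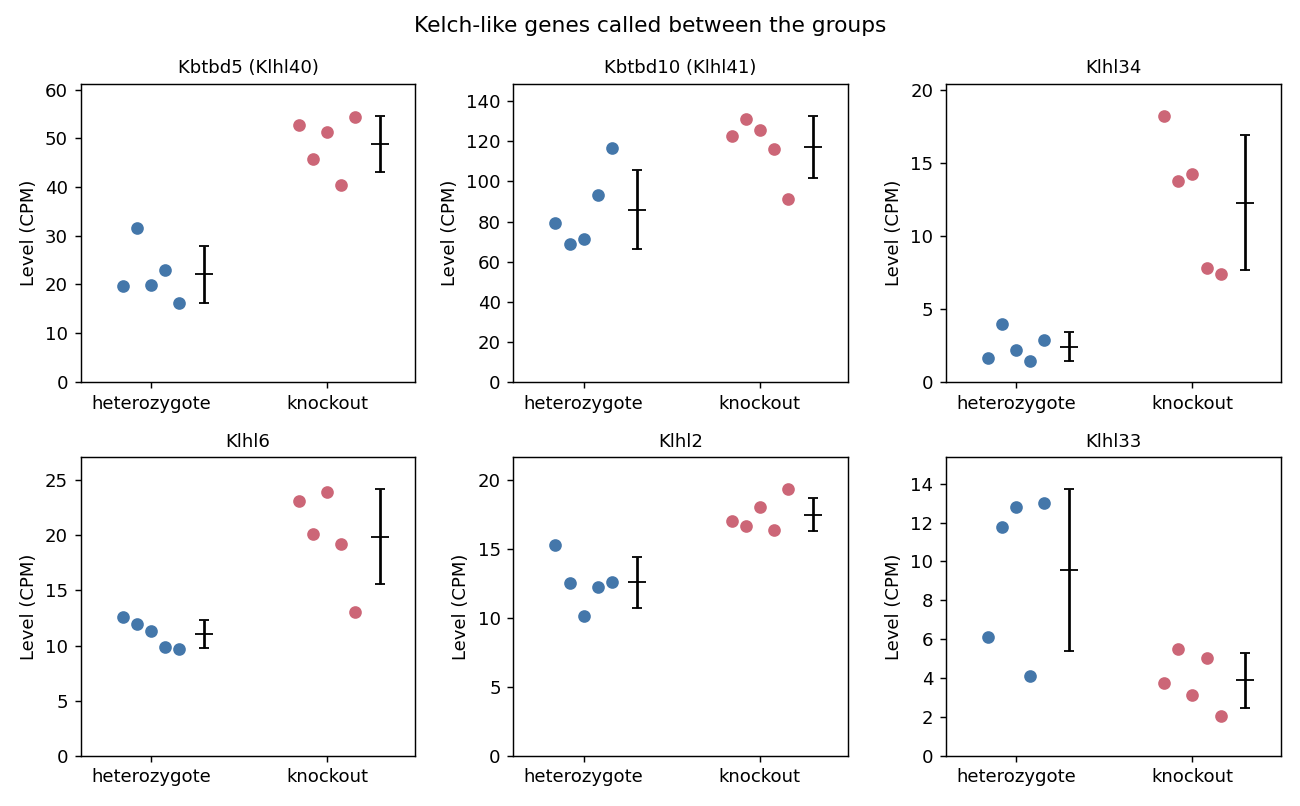
Level in CPM of the 6 Kelch-like genes called between the groups, with 1 point per animal and the mean ± SD beside the points (n = 5 per group). Kbtbd5, Klhl34, Klhl6 and Klhl2 show no overlap between groups, whereas Kbtbd10 and Klhl33 do.

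Without regard to the test, the groups of 5 members did not overlap and were higher in the knockouts, beside 8.41% of all tested genes. They were Kbtbd5, Klhl34, Klhl6, Klhl2 and Klhl13. No member was lower without overlap, beside 6.32% of all tested genes.

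Of the 5 members with the highest per-length level, Kbtbd10 passed the test and the other 4 did not. Klhl31, a muscle adaptor that binds filamin C, had the highest per-length level in both groups (83.4 ± 8.56 RPKM in heterozygotes and 90.3 ± 3.996 RPKM in knockouts). Its level was 539, 441, 579, 500.1 and 552 CPM in the heterozygotes and 581, 569.5, 593, 530.0 and 551 CPM in the knockouts. The groups overlapped, with heterozygotes 2 and 4 below every knockout, and the log2 fold change was 0.11 (standard error 0.0886, edgeR adjusted p = 0.410).

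Klhl30, a gene expressed in heart and skeletal muscle, ranked 2 in both groups, with 55.5 ± 14.6 and 56.2 ± 3.15 RPKM. In CPM it ran over 174, 237, 146, 119 and 161 in the heterozygotes and 182, 175, 157, 171 and 165 in the knockouts. The knockouts all lay inside the heterozygote range, and the log2 fold change of 0.02 (standard error 0.146, edgeR adjusted p = 0.949) changed sign in 6 of 20 alternatives.

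Klhl24 (chr16 20097554 to 20127744, plus strand), whose protein controls keratin and desmin filaments, ranked 3 in both groups, with 37.4 ± 10.0 and 52.0 ± 4.87 RPKM. The heterozygotes had 272, 139, 286, 243 and 311 CPM, and the knockouts had 324, 382, 361, 304 and 367 CPM. Only heterozygote 5 reached the knockout range, above knockout 4, and heterozygote 2 was far below the rest. The log2 fold change of 0.47 (standard error 0.169, edgeR adjusted p = 0.0653) missed the threshold. Without heterozygote 2 the difference was smaller, 0.33, yet it passed (edgeR adjusted p = 0.0349), as it did without heterozygote 5 (0.57, adjusted p = 0.0396) and in 4 other alternatives. Desmin itself (Des) was at 2675 ± 629.8 CPM and 3066 ± 489 CPM and had no call (0.20, edgeR adjusted p = 0.403).

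Klhl38, Kbtbd12 and Kbtbd13 complete the muscle members. Klhl38 was at 30.7, 21.6, 25.6, 16.98 and 20.5 CPM against 22.7, 33.2, 26.9, 17.04 and 31.2 CPM, with the groups overlapping throughout (log2 fold change 0.18, standard error 0.188, edgeR adjusted p = 0.553). An annotated antisense gene, Gm15943, covers 65.4% of its counted exon bases. Kbtbd12 was the steadiest of the 3, at 39.4, 37.8, 36.3, 48.4 and 43.1 CPM against 44.9, 39.3, 42.9, 41.2 and 39.4 CPM (0.02, standard error 0.0974, edgeR adjusted p = 0.927). Kbtbd13 was barely expressed, at 2.52, 2.21, 2.31, 1.55 and 2.46 CPM in the heterozygotes and 1.04, 2.60, 2.34, 0.924 and 0.622 CPM in the knockouts. Its knockouts fell into 2 animals inside the heterozygote range or just above it and 3 below it, and its log2 fold change of -0.57 had a standard error of 0.376 (edgeR adjusted p = 0.321).

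**Figure D3:**
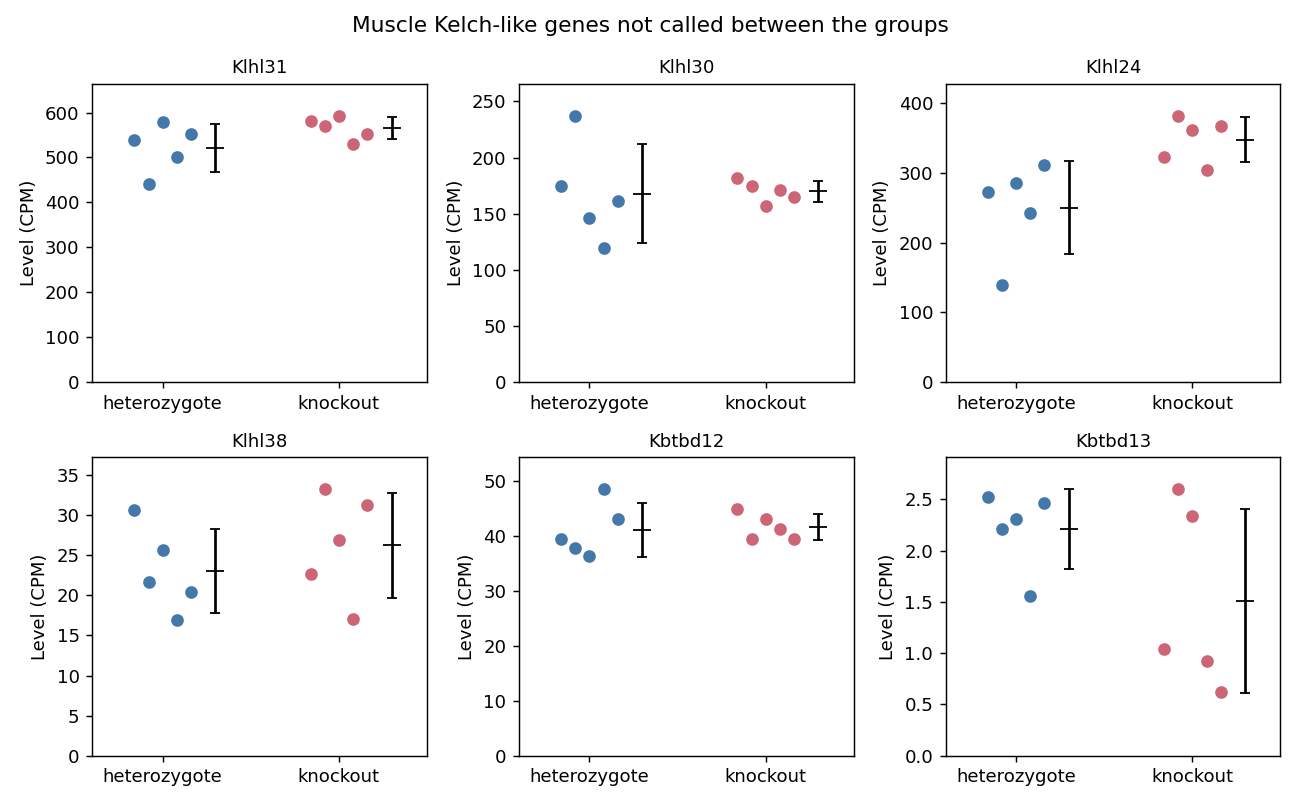
Level in CPM of the 6 muscle Kelch-like genes that were not called, with 1 point per animal and the mean ± SD beside the points (n = 5 per group). The groups overlap in every panel, and in Klhl24 heterozygote 2, at 139 CPM, lies far below the other animals.

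The same animals were not extreme in the same direction across these genes. Heterozygote 2 was the highest of its group for Kbtbd5, Klhl34 and Klhl30 and the lowest for Klhl24, Klhl31 and Kbtbd10. Knockout 5 was the lowest of its group for Klhl34, Klhl6, Kbtbd10 and Klhl33 and the highest for Kbtbd5 and Klhl2.

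In the whole family, 31 tested members had no call, 16 with a log2 fold change above 0 and 15 below, from -0.57 to 0.65. The widest of these belonged to genes with few reads. Of these 31, 5 came close to the threshold, with edgeR adjusted p-values of 0.0613 to 0.0681, and were singled out after their values were seen. One was Klhl24, and the others were Klhl28 (12.2 to 16.1 CPM, 0.40), Klhl18 (13.3 to 17.8 CPM, 0.41), Klhl13 (36.5 to 45.9 CPM, 0.33) and Klhl23 (104 to 83.6 CPM, -0.31). Of these 5, 4 were higher in the knockouts and Klhl23 was lower. KLHL13 and KLHL21 are adaptors that act on Aurora B kinase in dividing cells. Klhl21 ranked 4 in heterozygotes and 5 in knockouts at 35.1 ± 6.53 and 30.4 ± 2.80 RPKM, with a log2 fold change of -0.21 (standard error 0.125, edgeR adjusted p = 0.271). In GENCODE, Gm9768 on the opposite strand overlaps 18.7% of the counted bases of Klhl21. Besides Kbtbd5, Klhl38 and Klhl21, 8 members have counted bases that overlap another annotated gene. The largest overlaps are in Klhl17 and in Kbtbd4, the latter with 64.5% under Ptpmt1 on the opposite strand. All counted bases of Klhl17 lie in exons that GENCODE assigns to Plekhn1 on the same strand. GENCODE gives no start codon under the name Klhl17, so these may be its own exons under another name. In the annotation used for counting, exons of 0 of the 44 members overlap another gene.

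Spread of the members between animals was larger among heterozygotes. The median coefficient of variation over tested members was 20.1% in heterozygotes and 11.6% in knockouts. The same measure was not taken over all genes, so it cannot be told whether the family differs from other genes in this. Most of the family was present at measurable levels: 34 of the 37 tested members were at or above 1 RPKM in both groups, and the 5 most abundant in heterozygotes (Klhl31, Klhl30, Klhl24, Klhl21 and Kbtbd10) held 48.1% ± 1.89 of the summed RPKM there and 49.4% ± 0.892 in knockouts (SD, n = 5 each). Summed over all 44 members, the level was 510 ± 28.9 RPKM in heterozygotes (478 to 540) and 557 ± 22.4 RPKM in knockouts (535 to 592). The log2 ratio of these means was 0.13, and 0.21 with library totals as the only scaling. It is given with no test.

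The share of the summed RPKM that each member held is given here as a description. Klhl31 held 16.4% of it in heterozygotes and 16.2% in knockouts, Klhl30 10.9% and 10.1%, Klhl24 7.29% and 9.34% and Klhl21 6.88% and 5.46%. The share of Kbtbd10 went from 6.63% to 8.29% and that of Kbtbd5 from 1.79% ± 0.564 to 3.59% ± 0.472. Klhl34 held 0.246% ± 0.112 and then 1.13% ± 0.410, so the gene of the largest fold change remained a small part of the family's total.

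**Figure D4:**
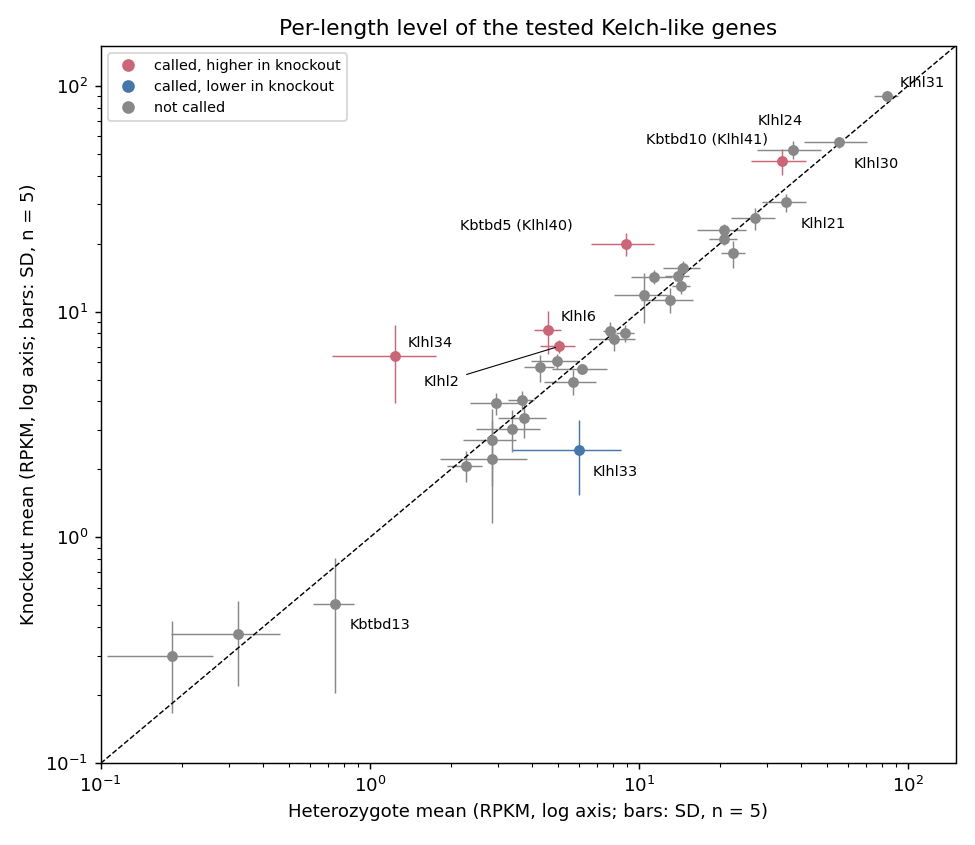
Mean level in RPKM (log axes) of the tested Kelch-like genes in heterozygotes (horizontal) and knockouts (vertical), with bars of 1 SD (n = 5) and a dashed line of equal levels. Most genes lie along the line over their whole range, from below 1 RPKM to Klhl31 at 83.4 and 90.3 RPKM, with Klhl34 and Kbtbd5 above it and Klhl33 below it.

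The ligase that these adaptors serve was examined through lists of its other parts. Among 25 genes of the Cul3 ligase core, its activation by the ubiquitin-like protein NEDD8 and its deactivation, 3 were called higher and 2 lower, with a median log2 fold change of 0.02. The calls make up 20% of the list, beside 18.9% of all tested genes (10.2% higher and 8.64% lower). Cul3, the scaffold, was at 45.0 ± 4.92 and 38.8 ± 6.31 CPM and was not called (-0.22, standard error 0.122, edgeR adjusted p = 0.238). Rbx1, the RING subunit that recruits the ubiquitin-carrying enzyme, was at 135 ± 12.5 and 134 ± 16.6 CPM (-0.02, edgeR adjusted p = 0.925).

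Cand2, a muscle-enriched factor of the family that exchanges adaptors on cullins, was at 292, 231, 281, 197 and 213 CPM in heterozygotes and 435, 452, 404, 363 and 365 CPM in knockouts. The groups did not overlap, and the log2 fold change was 0.73 (standard error 0.120, edgeR adjusted p = 0.000764). Its relative Cand1 was higher as well (0.42, edgeR adjusted p = 0.0285), as was Dcun1d3, a regulator of the attachment of NEDD8 to cullins (0.58, adjusted p = 0.0251). Ube2m, the enzyme that carries NEDD8 to cullins, fell from 187 ± 41.3 to 129 ± 14.2 CPM (-0.53, edgeR adjusted p = 0.0133). Cops6, a subunit of the signalosome that removes NEDD8, was lower (-0.31, edgeR adjusted p = 0.0234) and is named although it was chosen after its value was seen. All 5 of these genes showed no overlap between the groups. The calls of Cand1 (without knockout 1, 2 or 5), Dcun1d3 (without heterozygote 5, knockout 3 or knockout 4) and Cops6 (without knockout 2, 3 or 5) were lost when single animals were left out, with edgeR adjusted p-values of 0.0510 to 0.0667. With the endothelial score as covariate, Cand2 alone of the 5 stayed called.

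Of 12 genes of other cullins and their linkers, 3 were higher and 0 lower (median 0.04): Cul9 (0.70, edgeR adjusted p = 0.000368), Cul7 (0.49, adjusted p = 0.00260) and Ddb1, the linker of Cul4 ligases (0.29, adjusted p = 0.0285). These 3 are 25% of the list, beside 18.9% of all tested genes. The call of Ddb1 was lost without heterozygote 4 or 5 or without knockout 2, 4 or 5 (edgeR adjusted p = 0.0510 to 0.0728), and with the endothelial score Cul9 alone stayed called. Outside the Klhl and Kbtbd names, 4 of 7 BTB-Kelch genes were tested. None of the 4 was called by edgeR, DESeq2 or voom, 2 of them were at an unadjusted edgeR p below 0.05, and 1 was called without heterozygote 2. Keap1, the adaptor that marks the stress factor NRF2, was at 82.0 ± 15.3 and 84.7 ± 4.19 CPM (0.05, edgeR adjusted p = 0.820). Among 27 BTB adaptors of Cul3 that have no Kelch domain, Abtb2 was higher (0.36, edgeR adjusted p = 0.0230) and Spop was lower, with a median of 0.01 over the list. Both calls together are 7.41% of that list, beside 18.9% of all tested genes. Abtb2 lost its call without heterozygote 5, knockout 2 or knockout 5 (edgeR adjusted p = 0.0524 to 0.0563) and with the endothelial score (adjusted p = 0.284). Spop was at 312, 325, 339, 268 and 317 CPM in heterozygotes and 211, 245, 207, 212 and 201 CPM in knockouts, without overlap (-0.53, standard error 0.0916, edgeR adjusted p = 0.00107).

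Proteins reported as substrates or partners of the adaptors formed the last list, chosen from general knowledge of the family. Of 28 genes, 26 were tested, 2 were higher and 1 was lower, with a median log2 fold change of -0.01. Calls thus came in 11.5% of the tested genes of this list, beside 18.9% of all tested genes. Nrap, a scaffold of myofibril assembly that KLHL41 binds, was at 506, 498, 453, 389 and 403 CPM in heterozygotes and 941, 1054, 886, 807 and 917 CPM in knockouts (1.03, standard error 0.103, edgeR adjusted p = 1.24e-05). Flnc, the actin crosslinker filamin C and a partner of KLHL31 and KLHL41, rose from 274 ± 67.3 to 684 ± 99.0 CPM (1.32, standard error 0.159, edgeR adjusted p = 6e-05). Both of these transcripts were higher in every knockout than in any heterozygote.

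The partners of KLHL40 in skeletal muscle were not called. Neb was low, at 3.07 ± 1.33 and 4.59 ± 2.0 CPM (0.62, edgeR adjusted p = 0.281), and Lmod3 was at 119 ± 15.6 and 102 ± 23.8 CPM (-0.23, edgeR adjusted p = 0.323). Of the WNK kinases, which KLHL2 and KLHL3 target, Wnk1 was at 90.3 ± 12.3 and 109.7 ± 20.6 CPM (0.28, edgeR adjusted p = 0.160). Wnk4 was at 10.96, 7.86, 12.05, 6.44 and 11.1 CPM in heterozygotes and 4.58, 5.04, 4.98, 4.0 and 4.36 CPM in knockouts. It fell by 1.08 on the log2 scale without overlap between the groups (standard error 0.193, edgeR adjusted p = 0.00141). These are transcript levels, and ubiquitin ligases act on proteins, which were not measured here.

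**Figure D5:**
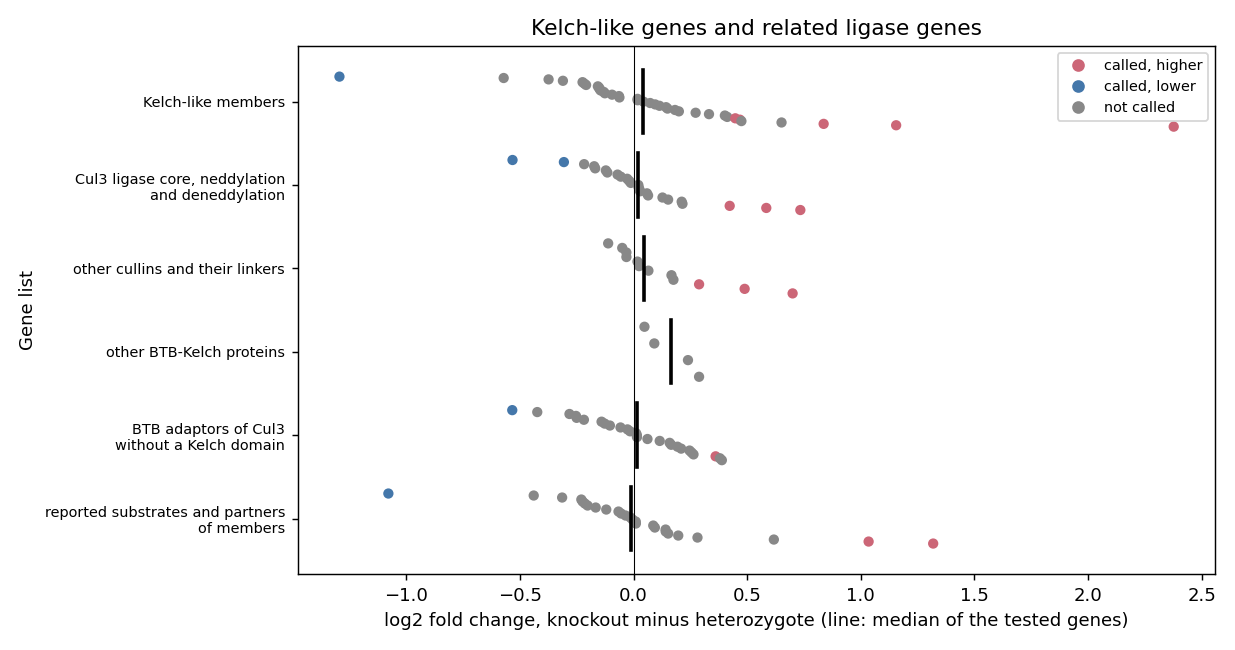
Log2 fold change, knockout minus heterozygote, of each tested gene in the Kelch-like family and in 5 lists of related ligase genes, with a line at each list's median. The medians lie between -0.01 and 0.17, and the Kelch-like family has both the highest and the lowest single value.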

How the data were processed

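Each library began with 10 ng of RNA from sorted cells, made into cDNA with SMART-Seq v4 (8 cycles of PCR) and tagged with Nextera XT (500 pg), per the labels' protocols. The deposited values are whole-number read counts per gene, not normalised. The authors made them with featureCounts 1.5.1 against a 2012 UCSC annotation of mm10, per the file headers, with no option for strand. The submitters' processing notes name CASAVA 1.8, STAR 2.5.3a and Subread 1.5.2, and the alignment files carry another aligner's default name, so the aligner is uncertain. The table has 14 count columns, and 4 that match no sample were not used. Counts in any 2 replicates differed by more than sampling noise.

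Genes were filtered with filterByExpr (minimum count 10, minimum total 15), scaled by TMM and tested over all 10 samples with edgeR 4.0.16 (quasi-likelihood, R 4.3.3). Benjamini-Hochberg adjustment ran over 11870 genes, and a gene was called below 0.05. Standard errors are the log2 fold change over the root of F. CPM uses TMM-scaled totals and RPKM divides it by counted exon length. Depth floors (3 counts) cover counting error only. On simulated counts of 11763 genes, the fit recovered 81% of 2-fold and 100% of 4-fold changes, and 5.24% of its calls were unchanged genes.

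The members and lists were chosen with earlier results of these data known, so list counts are descriptions. Named were Actn2, called members, muscle members, the 5 highest members per length, set ligase and substrate genes, and up to 4 called genes of largest change per list. Promoters were matched by symbol to RefSeq, and gene overlaps came from GENCODE M21. Alternatives were other scalings (RLE, upper-quartile, library totals), filters, a replicate block, DESeq2 1.42.0, voom with sample weights (limma 3.58.1), marker covariates and leaving out each animal.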

Additional observations from a re-analysis of the deposited data

Results flagged for a closer look

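In 8 of 116 groups of 5 values (members and named list genes, each in 1 group of animals), a single animal stood apart from the other 4 on the log2 CPM scale by a gap above the 95% critical value of Dixon's test, where chance alone would give about 6. Kbtbd13 was at 0.71 in heterozygote 4, with the next animal at 1.20. Kbtbd2 was at 6.10 in knockout 2 (next 5.89), and Kbtbd3 at 4.42 in knockout 5 (next 4.79). Kbtbd4 was at 4.91 in heterozygote 2 (next 5.12). Klhl17 was at 4.20 in knockout 4 (next 4.50), and Klhl28 at 3.64 in knockout 1 (next 4.04). Of the list genes, Cand1 was at 5.32 in heterozygote 2 (next 5.94) and Spop at 7.94 in knockout 2 (next 7.73). Without heterozygote 2 the log2 fold change of Cand1 was 0.31 (edgeR adjusted p = 0.01), and without knockout 2 that of Spop was -0.58 (edgeR adjusted p = 0.00116).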

How the results depend on the processing

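The family level was recomputed only with other scalings, as a sum of CPM and without each animal. Calls and log2 fold changes were recomputed in 20 other ways (19 for Kbtbd13 and Neb). Besides Actn2, which stayed between -1.44 and -1.30, 37 genes are named, and 17 of them changed neither sign nor call in any. Over 738 combinations of gene and alternative, 652 did so, 43 lost a call, 23 gained one and 20 changed sign. The members called (6: 5 higher, 1 lower) became 10 (9 higher) with library totals alone and 3 (3 higher, 0 lower) with the endothelial score as covariate. Members called lower were 2 with upper-quartile scaling, DESeq2, voom with sample weights and the Y-linked score. Leaving out 1 animal gave 4 to 7 members called, 3 to 6 higher and 1 to 2 lower (3 higher without knockout 3, and 2 lower without heterozygote 3 or knockout 2). The endothelial covariate cut calls over all genes to 1032 (534 higher, 498 lower) and over the lists from 13 to 6 (4 higher, 2 lower). In single lists it left 1 of 5 core genes, 1 of 3 other cullin genes and 1 of 2 BTB adaptors without Kelch domain, of which library totals alone called 4. With those totals 1 other BTB-Kelch gene was called, where none had been, and the family's log2 ratio was 0.21 (added after seeing the data). Leaving out 1 animal gave 3 to 5 core genes, 0 to 1 other BTB-Kelch genes and 1 to 3 BTB adaptors without Kelch domain. The cause of these shifts was not tested. Signs changed in 5 named genes, none of them called. Klhl30 was -0.0095 with upper-quartile scaling, -0.13 with the endothelial and -0.0064 with the Y-linked score, and -0.084 to 0.18 without 1 animal. Kbtbd12 was -0.011 with upper-quartile scaling and -0.024 to 0.083 without 1 animal, and Klhl38 was -0.13 with the endothelial score. Rbx1 was 0.056 with library totals, 0.0085 with voom, 0.019 with the endothelial score and -0.074 to 0.033 without 1 animal, and Keap1 was -0.0098 to 0.16 without 1 animal. Replicate numbers are shared between groups as a label only: same-numbered animals correlated at -0.0604 to 0.185, and not every sample matched its own number best. A replicate block called 7 members, losing Kbtbd10 and gaining Klhl24 and Klhl18, and 2182 genes in all. Depth limits the members with few reads, such as Kbtbd13 and Kbtbd8.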
